A study of Arabidopsis thaliana with 24 samples.

Results

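PWD, APL3 and ATSPS4F are the annotated symbols of enzymes that build, tag or process starch and sucrose. Of the 22746 probe sets of the Affymetrix ATH1 array that are not controls, 4 were annotated to exactly 1 gene with 1 of these symbols. APL3 (AT4G39210, probe set 252888_at) and ATSPS4F (AT4G10120, 255016_at) each had 1. The symbol PWD stood on a pair of probe sets for different genes: 246829_at for AT5G26570, which RefSeq lists as phosphoglucan, water dikinase with the synonyms ATGWD3 and OK1, and 254153_at for AT4G24450, with the synonyms ATGWD2 and GWD3. AT5G26570 is called PWD here and AT4G24450 is called ATGWD2, so 4 genes are described. All 4 were above the lowest value of the table on at least 1 array and entered the fit of 14192 probe sets. ATGWD2, APL3 and ATSPS4F were chosen by their higher level in axr3-1 than in Col, so those differences, and those of axr3-1 from the other mutants, are given as descriptions with no test. PWD was not chosen by its values and came in only because it shares the symbol.

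Starch is stored as insoluble granules in plastids. ADP-glucose pyrophosphorylase, an enzyme of large and small subunits, makes the glucosyl donor for its synthesis. Breakdown of leaf starch at night begins with water dikinases, which put phosphate on the glucan chains and so open the granule surface to hydrolases. Sucrose, the sugar exported from leaves, is made in the cytosol by sucrose-phosphate synthase followed by a phosphatase. APL3 is a large subunit of ADP-glucose pyrophosphorylase, known for its induction by sugars. ATSPS4F is a sucrose-phosphate synthase, PWD acts on glucan that another dikinase has already phosphorylated, and ATGWD2 belongs to the same dikinase family and has been placed outside the plastid.

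The arrays measured whole-seedling RNA of Arabidopsis thaliana, all in the Columbia ecotype: wild type (Col), the single mutants axr3-1 and iaa17-6, and a triple mutant, iaa5-1 iaa6-1 iaa19-1. IAA17, also named AXR3, and the genes IAA5, IAA6 and IAA19 encode Aux/IAA proteins, which repress auxin-responsive transcription until auxin triggers their breakdown, and axr3-1 is known as an allele with a stabilised protein. Seedlings were 7 days old, grown in light for 16 h and dark for 8 h in liquid medium with 1.5% sucrose, and received 5 µM indole-3-acetic acid (IAA, an auxin) or ethanol as the control for 2 h at 24 °C. All groups therefore had sucrose in the medium. Each of the 8 groups had 3 arrays, 24 in all. Nothing in the labels ties a replicate to a culture of its own, so the p-values reflect the spread among these arrays alone and that spread may be technical. For whole seedlings, fewer cells with a transcript and less transcript per cell cannot be told apart.

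Values are on the log2 scale, and none lies below 5.64, the log2 of 50, called the floor here. Differences from a group near the floor understate the change. Arrays at the floor also hide spread, so the SE and interval of a gene near it can be too small. Array medians ran from 5.941 to 6.064. Within their groups, 6 arrays stood apart from the other arrays: Col control 3, iaa17-6 control 3, iaa17-6 IAA 3, axr3-1 IAA 3 and array 1 of each triple mutant group. Where leaving them out made or ended a call printed here, the value without them is given. The annotation used here named a probe set for 1 of 6 listed root markers, PYK10, and for 2 of 9 photosynthetic shoot markers, LHCB4.1 and RCA. Their group means lay between 12.04 and 12.61 in all 8 groups. In the controls axr3-1 differed from Col by 0.02 for PYK10 (SE 0.11), 0.14 for LHCB4.1 (SE 0.17) and 0.05 for RCA (SE 0.14) on the log2 scale. Of the 3, 0 passed the limma test or had an unadjusted p below 0.05, which 2711 of all 14192 tested probe sets had.

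**Figure D1:**
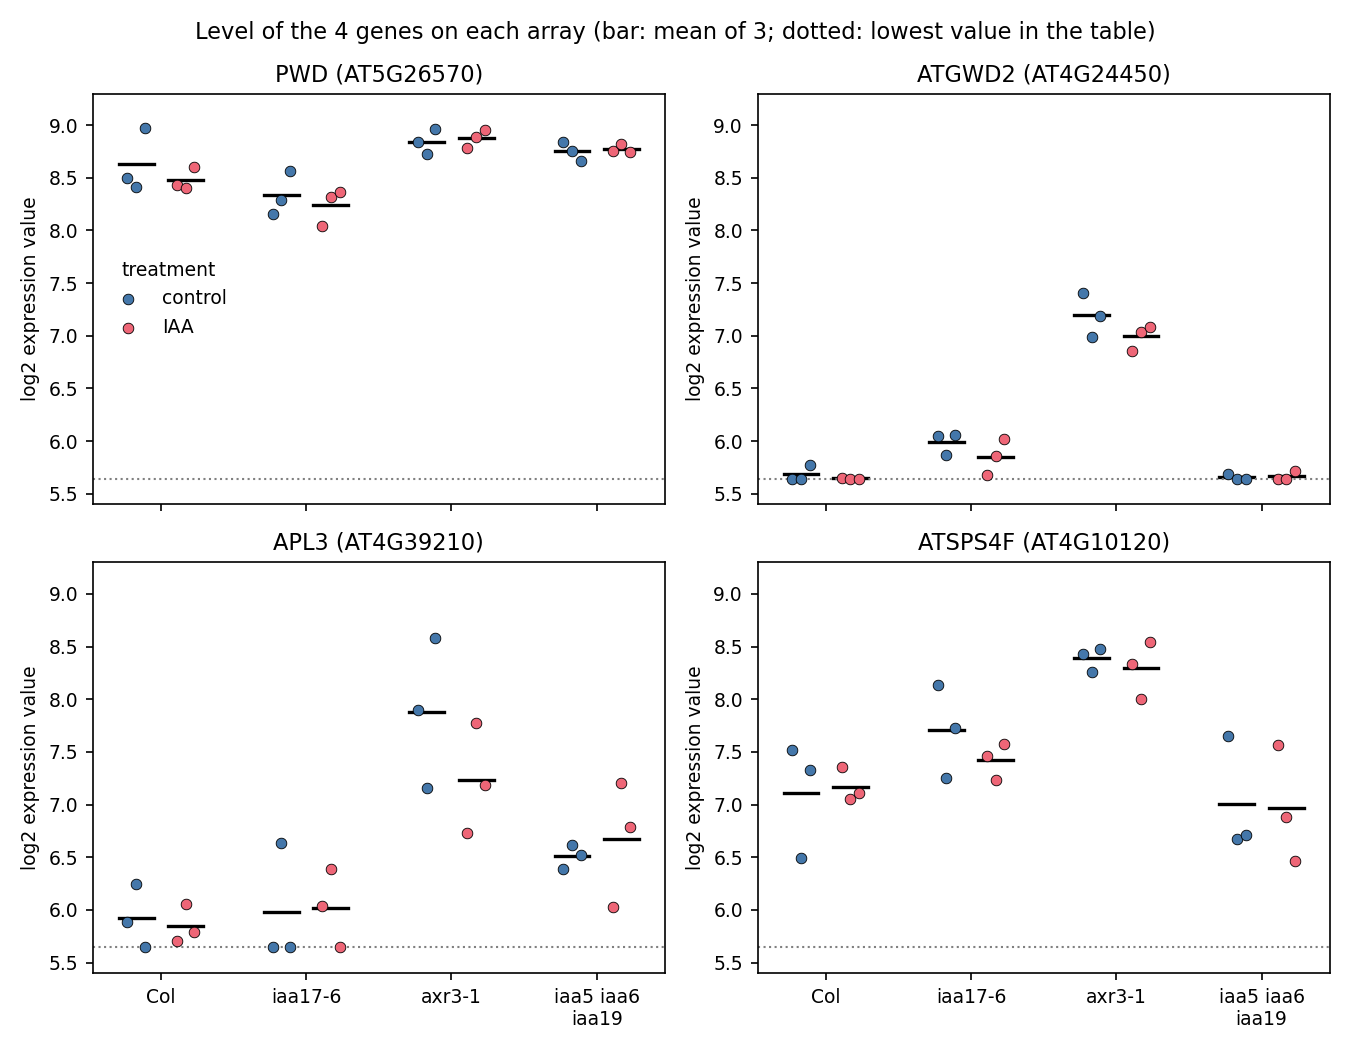
Log2 expression value (vertical axis) of PWD, ATGWD2, APL3 and ATSPS4F on each of the 24 arrays, by genotype and treatment, with the group mean as a bar and the floor of 5.64 as a dotted line. Only ATGWD2 has all 6 axr3-1 arrays, 6.86 or higher, above all 18 other arrays, 6.06 or lower. Its choice by the axr3-1 difference from Col favours this.

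The dikinase gene ATGWD2 was near the floor in Col and clearly above it in axr3-1. In Col it read 5.64, 5.64 and 5.77 on the control arrays and 5.65, 5.64 and 5.64 on the IAA arrays, so that 1 array of each group was above the floor. In axr3-1 it read 7.41, 6.99 and 7.18 on the control arrays and 6.86, 7.04 and 7.09 after IAA. The lowest axr3-1 array lay 0.80 above the highest of the 18 arrays of the other genotypes, a separation that none of the other 3 genes showed. ATGWD2 was chosen by its axr3-1 difference from Col, and the floor holds most Col and triple mutant arrays together. Both favour such a gap, and the share of all probe sets with one is not given here, so nothing is read from it.

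Between these extremes lay iaa17-6, with ATGWD2 at 6.04, 5.87 and 6.06 on control arrays and 5.68, 5.86 and 6.02 after IAA. All 6 iaa17-6 arrays were above the floor. The triple mutant read 5.69, 5.64 and 5.64 as control and 5.64, 5.64 and 5.71 after IAA, within the range of Col. As differences, axr3-1 exceeded Col by 1.51 (SE 0.094, 2.84-fold) in the control and by 1.35 (SE 0.094, 2.55-fold) after IAA. These folds understate the difference, since most Col arrays were at the floor.

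Against the other mutants the ATGWD2 level of axr3-1 was also higher. In the control its excess was 2.30-fold over iaa17-6 and 1.53 on the log2 scale over the triple mutant. After IAA it was 1.15 and 1.33 on the log2 scale. The order of the group means ran from the axr3-1 control (7.19 ± 0.21, SD, n = 3) through axr3-1 IAA (7.00 ± 0.12), the iaa17-6 control (5.99 ± 0.11) and iaa17-6 IAA (5.85 ± 0.17) to the 4 groups of Col and the triple mutant, between 5.65 and 5.69. Of the 7 pairs of neighbours in that order, 1 did not overlap, axr3-1 IAA and the iaa17-6 control.

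PWD, the gene with the established role in leaf starch breakdown, had the smallest range of group means of the 4. The other 3 were chosen by a large axr3-1 difference, so nothing is read from that. Within groups ATGWD2 had a lower median SD than PWD (0.090 against 0.11), but its Col and triple mutant arrays lay mostly at the floor, which hides spread. In the iaa17-6 and axr3-1 groups the SD was 0.11 to 0.21 for ATGWD2 and 0.087 to 0.21 for PWD. Group means of PWD ran from 8.24 ± 0.17 in iaa17-6 after IAA to 8.87 ± 0.087 in axr3-1 after IAA (SD, n = 3), a range of 0.64 against 1.55 for ATGWD2. Control arrays of Col read 8.50, 8.42 and 8.97, the highest being array 3, which stands apart. After IAA the Col arrays read 8.43, 8.40 and 8.60.

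In axr3-1, PWD read 8.84, 8.72 and 8.96 as control and 8.78, 8.88 and 8.96 after IAA. In iaa17-6 it read 8.16, 8.29 and 8.56 as control and 8.04, 8.31 and 8.36 after IAA, so that the groups of these genotypes did not overlap in either treatment. The triple mutant read 8.84, 8.76 and 8.66 as control and 8.76, 8.82 and 8.74 after IAA, overlapping axr3-1. In the order of group means all 7 neighbouring pairs overlapped.

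PWD was higher in axr3-1 than in iaa17-6, by 0.51 in the control (SE 0.13, 1.42-fold, limma adjusted p = 0.0197) and by 0.64 after IAA (SE 0.13, 1.55-fold, limma adjusted p = 0.00346). The call in the control was lost when iaa17-6 control array 1 or 2 or axr3-1 control array 1 or 3 was left out, with adjusted p up to 0.105. The difference from Col did not pass the test in either treatment. It was 0.21 in the control (95% interval -0.06 to 0.49, limma adjusted p = 0.429) and 0.40 after IAA (0.12 to 0.67, limma adjusted p = 0.0738), where the groups did not overlap. Without the 6 arrays that stand apart both values passed, at 0.39 (limma adjusted p = 0.0306) and 0.36 (0.0477). Between axr3-1 and the triple mutant PWD differed by 0.09 (-0.18 to 0.36, limma adjusted p = 0.854) and 0.10 (-0.17 to 0.38, limma adjusted p = 0.757).

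APL3 was at or near the floor in Col and iaa17-6 and higher in axr3-1. Its arrays also spread most within groups, with a median SD of 0.45 over the 8 groups against 0.36 for ATSPS4F. In Col it read 5.89, 6.25 and 5.64 as control and 5.71, 6.05 and 5.79 after IAA. In axr3-1 it read 7.90, 7.16 and 8.59 as control and 6.73, 7.78 and 7.19 after IAA, above every Col array.

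The iaa17-6 arrays read 5.64, 6.64 and 5.64 for APL3 as control and 6.04, 6.39 and 5.64 after IAA, with 3 of the 6 at the floor. The triple mutant read 6.39, 6.61 and 6.53 as control and 6.03, 7.20 and 6.79 after IAA, all 6 above the floor. After IAA the triple mutant overlapped axr3-1, whose lowest array was 6.73. The neighbouring groups in the order of APL3 means overlapped in 6 of 7 pairs, and the exception was the triple mutant control (6.51 ± 0.11) above iaa17-6 IAA (6.02 ± 0.37).

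The APL3 level of axr3-1 exceeded that of Col by 1.95 in the control (SE 0.36, 3.88-fold) and by 1.38 after IAA (SE 0.36, 2.61-fold). It exceeded iaa17-6 by 1.91 and 1.21, and the triple mutant by 1.37 and 0.56, for control and IAA. Array 2 of the triple mutant IAA group, at 7.20, was higher than 1 of the 3 axr3-1 control arrays. Without the 6 arrays that stand apart the excess over Col was 1.81 and 1.41, and that over the triple mutant 1.31 and 0.26.

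ATSPS4F was above the floor on all 24 arrays. Col read 7.52, 6.49 and 7.33 as control and 7.35, 7.05 and 7.11 after IAA. In axr3-1 it read 8.43, 8.26 and 8.47 as control and 8.33, 8.00 and 8.55 after IAA, all above the Col arrays. The arrays of iaa17-6 read 8.14, 7.26 and 7.72 as control and 7.46, 7.24 and 7.57 after IAA, with means between those of Col and axr3-1 and overlap with Col in both treatments. The iaa17-6 control array at 8.14 was above the lowest axr3-1 IAA array.

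The triple mutant had the lowest ATSPS4F means, with arrays at 7.65, 6.67 and 6.71 as control and 7.56, 6.88 and 6.47 after IAA. In both of its groups array 1, which stands apart, was the high one. As differences axr3-1 exceeded Col by 1.27 (SE 0.31, 2.42-fold) and 1.13 (SE 0.31, 2.18-fold), iaa17-6 by 0.68 and 0.87, and the triple mutant by 1.38 and 1.32, for control and IAA. All 7 neighbouring pairs in the order of means overlapped. Without the 6 arrays that stand apart the excess over Col was 1.38 and 1.00.

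These differences stand beside those of all tested probe sets. In the control, 9.05% of the 14192 probe sets passed the threshold (limma adjusted p below 0.05) between axr3-1 and Col, and after IAA 7.72% did. Of the 4 genes 3 passed as higher in each, which the choice of 3 of them by that difference accounts for, so nothing is read from it. Between axr3-1 and iaa17-6, 7.71% of probe sets passed in the control and 7.24% after IAA, and between axr3-1 and the triple mutant 8.29% and 9.76%. Calls of the 3 chosen genes in these comparisons are not counted. PWD, the gene not chosen by its values, passed in both comparisons with iaa17-6 and in neither with the triple mutant. All of these comparisons share the axr3-1 arrays.

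Against Col, the other mutants gave no call for any of the 4 genes. The share of all probe sets called was small here: 0.197% for iaa17-6 in the control, 0.106% after IAA, 0.176% for the triple mutant in the control and 0.148% after IAA. An unadjusted p below 0.05 was more frequent. Of all 14192 probe sets, 1271 and 1288 had one for iaa17-6, and 1083 and 1022 for the triple mutant, for control and IAA. Of the 16 differences 0 passed, 5 had an unadjusted p below 0.05, and the lowest limma adjusted p was 0.247. That lowest value was ATGWD2 in iaa17-6 against Col in the control, 0.30 higher (95% interval 0.11 to 0.50), with no overlap between the groups. ATGWD2 was 0.21 higher after IAA (0.0086 to 0.40), again without overlap. The mutant and Col groups also did not overlap for PWD after IAA in both mutants and for APL3 in the triple mutant control. The share of all probe sets without overlap is not given here, so nothing is read from it. The SE behind all ATGWD2 intervals also draws on the Col and triple mutant groups, mostly at the floor (SD 0.0022 to 0.074). In iaa17-6 and axr3-1 the SD was 0.11 to 0.21, so these intervals and p-values can be too small.

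Each of the other 3 values with an unadjusted p below 0.05 failed the adjustment too. PWD was 0.29 lower in iaa17-6 than in Col in the control (difference -0.29, 95% interval -0.57 to -0.02, limma adjusted p = 0.501) and 0.30 higher in the triple mutant after IAA (0.02 to 0.57, limma adjusted p = 0.643). APL3 was 0.83 higher in the triple mutant after IAA (0.08 to 1.57, limma adjusted p = 0.635). These comparisons share the Col arrays with those of axr3-1. The widest intervals were those of APL3. For iaa17-6 in the control it ran from -0.70 to 0.80 around 0.05.

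**Figure D2:**
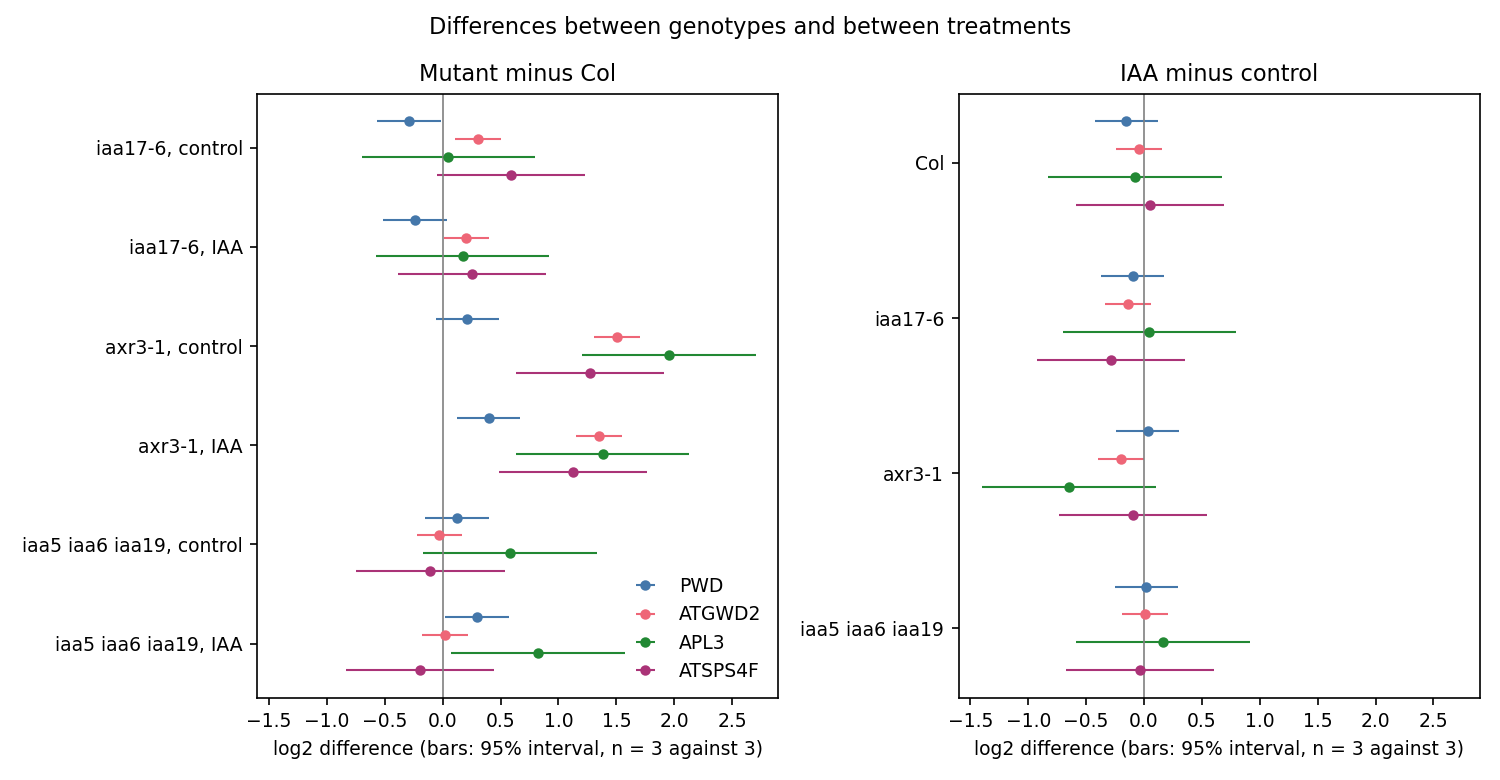
Log2 differences (horizontal axis) of the 4 genes between each mutant and Col by treatment (left) and between IAA and control by genotype (right), with bars for the 95% interval of the limma fit, 3 arrays against 3. The axr3-1 differences of ATGWD2, APL3 and ATSPS4F, by which they were chosen, lie between 1.13 and 1.95, and the IAA responses between -0.65 and 0.16. The bars of those axr3-1 differences take no account of the choice and are not to be read as a test.

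None of the 4 genes passed the test for a response to IAA within the 2 h in any genotype. Over the 16 responses 1 had an unadjusted p below 0.05, and the lowest limma adjusted p was 0.456. Of all 14192 probe sets 2213 had such an unadjusted p in Col, 2433 in iaa17-6, 1550 in axr3-1 and 2097 in the triple mutant. The share of all probe sets that responded was 7.04% in Col, 7.72% in iaa17-6, 2.4% in axr3-1 and 7.27% in the triple mutant. In Col the responses were -0.15 for PWD (95% interval -0.43 to 0.12), -0.04 for ATGWD2 (-0.24 to 0.16), -0.08 for APL3 (-0.83 to 0.67) and 0.06 for ATSPS4F (-0.58 to 0.70).

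The response farthest from 0 was that of APL3 in axr3-1, -0.65 (-1.40 to 0.10, limma adjusted p = 0.531), with overlapping groups. ATGWD2 in axr3-1 gave -0.20 (-0.39 to 0.00, limma adjusted p = 0.456). ATGWD2, APL3 and ATSPS4F were chosen on axr3-1 and Col arrays that enter their responses in these genotypes. The choice alone can shift those responses, so no fall is read from them. In Col and the triple mutant ATGWD2 lay at the floor on 2 of 3 arrays in each group, so a fall there could not be seen. The intervals of APL3 were the widest of the 4 genes. The fit gives a gene the same SE in every genotype, so this is not a finding about each genotype.

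Differences between the response of a mutant and that of Col were called for 0.0282% of probe sets in iaa17-6, 1.62% in axr3-1 and 0.0352% in the triple mutant. In the same order, 305, 1283 and 205 of the 14192 probe sets had an unadjusted p below 0.05. Among the 12 values of the 4 genes 0 passed and 0 had an unadjusted p below 0.05, with a lowest limma adjusted p of 0.731. They ran from -0.57 (APL3 in axr3-1, 95% interval -1.63 to 0.49) to 0.24 (APL3 in the triple mutant, SE 0.51).

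Other genes of the same pathways were taken from lists of starch and sucrose synthesis and breakdown. Of 71 listed genes 11 had a probe set of their own in the annotation used here, too few to stand for the pathways. APL4, a further large subunit of ADP-glucose pyrophosphorylase, was at the floor on all 24 arrays. Beside the 4 genes described, 6 were tested: the starch branching enzyme gene SBE2.2, the amylase gene AMY1, the disproportionating enzyme gene DPE1, the sucrose-phosphate phosphatase gene SPP2, the vacuolar invertase gene BFRUCT3 and CWINV6, a fructan exohydrolase of the invertase family. AMY1 was above the floor on only 1 array, of axr3-1 after IAA. It stays in the counts and medians of the 6, but a difference in it could hardly be seen. None of the 7 listed sugar-responsive markers had a named probe set.

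In the control 2 of these 6 were higher in axr3-1 than in Col and 0 lower, where 9.05% of all tested probe sets passed. The median difference of the 6 was 0.29 against 0.0015 for all tested probe sets. In the limma fit 4 of the 6 had an unadjusted p below 0.05, as did 2711 of all 14192 probe sets. Among the 4 were BFRUCT3 with the opposite sign (-0.41, SE 0.16, limma adjusted p = 0.133) and CWINV6 (0.45, SE 0.17, limma adjusted p = 0.123). SBE2.2 rose from 8.26 ± 0.29 to 9.13 ± 0.022 (SD, n = 3), a difference of 0.86 (SE 0.25, 1.82-fold, limma adjusted p = 0.0305). SPP2, whose product acts on the product of ATSPS4F, rose from 7.10 ± 0.30 to 7.84 ± 0.077, a difference of 0.74 (SE 0.18, 1.67-fold, limma adjusted p = 0.009). After IAA 0 of the 6 passed or had an unadjusted p below 0.05 in the limma fit, where 2519 of 14192 probe sets had such a p. SBE2.2 was at 0.49 (SE 0.25) and SPP2 at 0.27 (SE 0.18). Whether the differences in the 2 treatments were unlike was tested as the difference of responses, which passed for neither (limma adjusted p = 0.757 for SBE2.2 and 0.611 for SPP2). Both calls in the control were lost without the 6 arrays that stand apart (adjusted p = 0.0911 and 0.0981) and without Col control array 3 alone. The SBE2.2 call was also lost without Col control array 1 or any 1 of the axr3-1 control arrays.

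**Figure D3:**
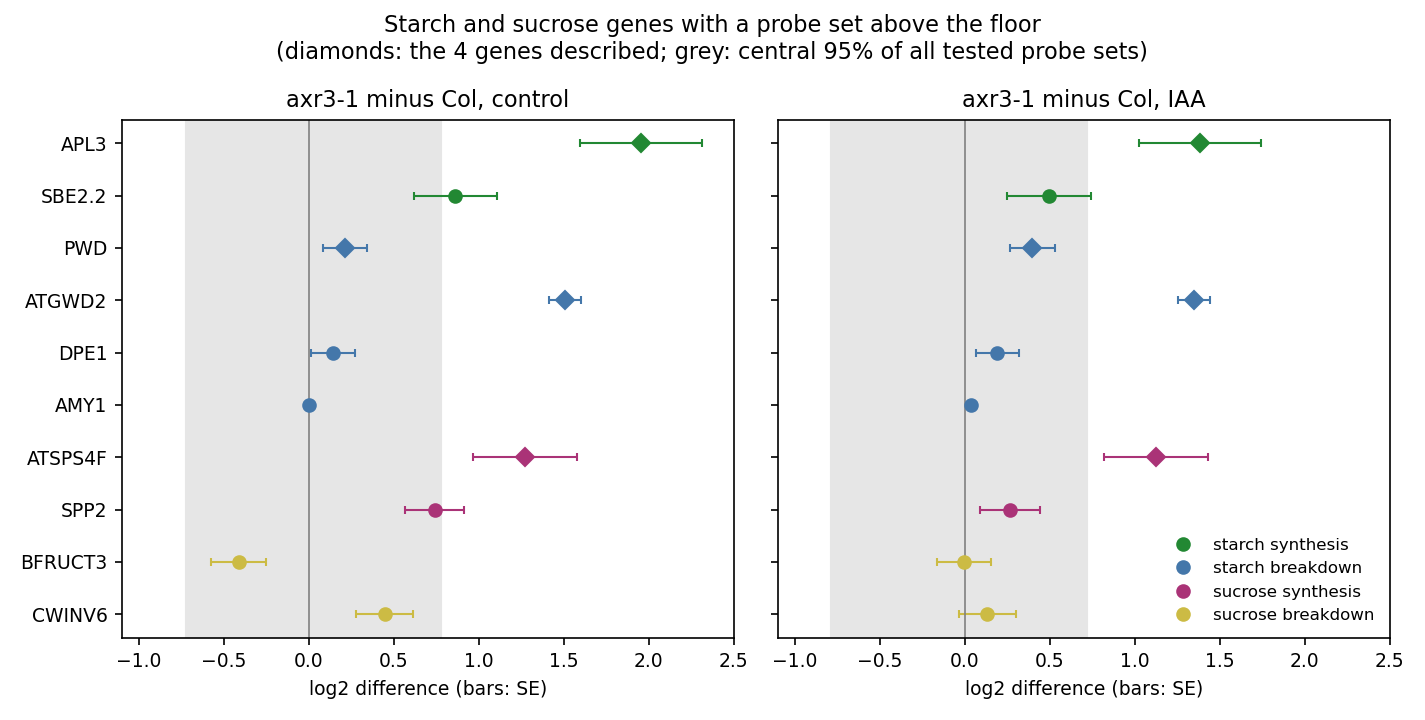
Log2 difference of axr3-1 from Col (horizontal axis, bars for the SE) for the 4 genes described (diamonds) and 6 other starch and sucrose genes (circles), in the control (left) and after IAA (right), with the central 95% of all 14192 tested probe sets in grey. SBE2.2 lies above the grey band in the control, where its upper end is 0.778, and within it after IAA.

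Against iaa17-6 in the control, axr3-1 had SBE2.2 higher by 1.04 (SE 0.25, limma adjusted p = 0.0108) and BFRUCT3 lower (difference -0.60, SE 0.16, limma adjusted p = 0.0229). Against the triple mutant in the control BFRUCT3 was lower too (-0.69, SE 0.16, limma adjusted p = 0.00838). BFRUCT3 fell after IAA in iaa17-6 (-0.64, limma adjusted p = 0.0152) and in the triple mutant (-0.54, limma adjusted p = 0.0452). In axr3-1 its response was 0.04 and in Col -0.37, and neither passed. The difference between the BFRUCT3 response of a mutant and that of Col passed for no mutant (limma adjusted p = 0.632 for axr3-1). Responses of the mutants were not tested against each other. CWINV6 rose from the floor after IAA in Col (at least 1.48-fold, limma adjusted p = 0.0487) and iaa17-6 (at least 1.68-fold, limma adjusted p = 0.00653). In the triple mutant, also from the floor, the CWINV6 response did not pass (0.46, limma adjusted p = 0.131), and in axr3-1 it did not either (0.25, limma adjusted p = 0.596). In axr3-1 CWINV6 was above the floor already in the control, at 6.09 ± 0.37. The difference between the CWINV6 response of a mutant and that of Col passed for no mutant (limma adjusted p = 0.711 for axr3-1).

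Most of these calls were lost in some alternative settings. Against iaa17-6 both were lost without the 6 arrays that stand apart, SBE2.2 at 0.89 (adjusted p = 0.0677) and BFRUCT3 at -0.56 (adjusted p = 0.0624), and without iaa17-6 control array 3 alone. The BFRUCT3 call was also lost without iaa17-6 control array 1 or axr3-1 control array 3. Over all alternatives the SBE2.2 call was lost in 3 of 19 and the BFRUCT3 call in 5 of 19. Against the triple mutant the BFRUCT3 call was lost in 1 of 19, without axr3-1 control array 3 (adjusted p = 0.0562). For the responses to IAA, BFRUCT3 lost its call in iaa17-6 in 4 of 20, among them without control array 1 or 3 or IAA array 1, and in the triple mutant in 11 of 20, among them without any 1 control array or IAA array 2 or 3. The Col call of CWINV6 was lost in 12 of 16, among them without any 1 of the Col arrays and without the 6 arrays that stand apart (adjusted p = 0.0901). That of CWINV6 in iaa17-6 was lost in 0 of 17.

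Likeness of pattern was measured as Pearson's r over the 8 group means, a description of points that share arrays and one large axr3-1 difference. Among the 4 genes it was highest for ATGWD2 with ATSPS4F (0.966), then ATGWD2 with APL3 (0.861), PWD with APL3 (0.769) and APL3 with ATSPS4F (0.717). PWD and ATGWD2, which share a symbol, gave 0.50, and PWD with ATSPS4F 0.283.

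Candidates for other genes of like pattern were the 135 or 136 tested probe sets with 1 symbol and group means that ranged over at least 1 on the log2 scale. After ATSPS4F, the closest to ATGWD2 were APS3 (0.950), an ATP sulfurylase, FMO (0.939), ECS1 (0.918) and RING1 (0.911). For ATSPS4F the closest were ChiC, a chitinase (0.968), APS3 (0.967), ATGWD2, FACT (0.911) and the expansin-like EXLB1 (0.911). APL3 was closest to BETA-VPE, a vacuolar processing enzyme (0.945), then SBE2.2 (0.938), ECS1 (0.928), scpl20 (0.914) and ATC (0.903). PWD was closest to SBE2.2 (0.804), psaA (0.783), APL3, the sucrose transporter SWEET11 (0.724) and THIC, of thiamine synthesis (0.722). Over the 24 single arrays the r of ATGWD2 with its 5 closest genes ran from 0.820 to 0.886, that of ATSPS4F from 0.657 to 0.832 and that of APL3 from 0.652 to 0.878. For PWD it was 0.515 with SBE2.2, 0.161 with psaA and between 0.577 and 0.689 with the other 3.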

How the data were processed

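RNA of 24 seedling samples in 8 groups of 3 was measured on Affymetrix ATH1 arrays. The authors deposited 1 value per array for each probe set. The deposited values are on a log2 scale, as judged from their range, and how the authors summarized and normalized them is not given in the sources used here. Groups came from the labels, and 1 title that spells axr3-1 otherwise was settled by its description. Probe sets were named from the platform annotation and loci from RefSeq (13513 single-gene probe sets, 13436 matched).

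The 64 control probe sets and the 8554 at the floor on all arrays (a filter at the lowest 30% by mean) were left out. The remaining 14192 were fitted together with limma 3.58.1 in R 4.3.3 (8 group means, empirical Bayes with mean trend, 16 residual degrees of freedom). Two-sided p-values were adjusted by Benjamini-Hochberg over all tested probe sets of each of 17 contrasts, with a threshold of 0.05. The fit was checked on simulated data. Errors of differences are its SE, and the number of arrays limits the precision (median SE 0.152).

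The 4 probe sets and the gene lists were chosen with earlier results of these data known. Named beside the 4 genes are list genes past the threshold, at most 4 per list and contrast, and the 5 closest patterns per gene. The axr3-1 control difference of ATSPS4F was left untested although only its IAA difference had met the naming rule. Other list genes and markers are named to account for the lists. Whether arrays of the same number deviate together from their group means was checked. Every pair correlated over 0.1 across probe sets for the IAA response of iaa17-6 (0.162 to 0.698) and of the triple mutant (0.582 to 0.836). The same held for iaa17-6 against Col in the control (0.325 to 0.724) and for axr3-1 against iaa17-6 after IAA (0.272 to 0.792). In each of these comparisons both groups held an array of the same number that stands apart. Such arrays can give these correlations alone, so whether the numbers pair arrays stays unsettled. Alternatives covered normalization, filters, floor, variance model, array weights, groups fitted, replicate block and left-out arrays.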

Additional observations from a re-analysis of the deposited data

How the results depend on the processing

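Of the 44 differences of the 4 genes outside the axr3-1 comparisons, 41 stayed short of the threshold in all 876 values computed, and 31 changed sign in at least 1 alternative. The other 3 passed with array weights, whose estimation did not converge: ATGWD2 in iaa17-6 against Col in the control at 0.34 (limma adjusted p = 0.0251), and in the triple mutant against Col after IAA PWD at 0.34 (0.00494) and APL3 at 1.18 (0.00201). The number of the 4 genes past the threshold then was 1 and 2. The axr3-1 differences of the 4 genes kept their sign throughout. PWD in axr3-1 against Col after IAA passed with quantile normalization (0.44, limma adjusted p = 0.0475), array weights (0.41, 0.0103) and the replicate block (0.40, 0.0342). It also passed without the 6 arrays that stand apart (0.36). Arrays of the same number did not deviate together in this comparison (correlations from -0.398 to 0.0585). Without those 6, PWD against Col in the control was 0.39. With the groups of a contrast fitted alone, which leaves fewer arrays to estimate the spread, PWD against iaa17-6 gave 0.51 (adjusted p = 0.155) and 0.64 (0.0621), and 1 gene passed in 5 of the 6 axr3-1 comparisons, the exception being Col after IAA. Leaving out 1 array moved PWD against iaa17-6 in the control between 0.42 and 0.62. Counts of the 4 genes in axr3-1 comparisons include those chosen by that difference and test nothing. Leaving out 1 array left 1 to 2 of the 4 genes past the threshold between axr3-1 and Col after IAA, 1 of them without axr3-1 IAA array 3 or Col IAA array 3, and 1 to 2 between axr3-1 and the triple mutant after IAA, 1 without triple mutant IAA array 3.

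A floor raised to 64 lowered the ATGWD2 excess of axr3-1 to 1.19 over Col and the triple mutant in the control and, after IAA, to 1.00 over both (0.995) and 0.99 over iaa17-6. A floor of 100 gave ATGWD2 0.55 over each genotype in the control and 0.35 after IAA, a difference of 0 between iaa17-6 and Col in the control, and APL3 1.24 over Col and iaa17-6 in the control and 0.59 after IAA (0.588), by construction, since it hides the lower values. Counts of all probe sets moved by over 1.5 times in some alternatives, from 482 to 1704 for axr3-1 against Col in the control and from 583 to 1629 after IAA. ATGWD2 and APL3 were left out by the 2 stricter filters, and each list gene had 1 probe set, so the choice among several did not arise. Paired by replicate number, the call of CWINV6 in Col was lost (adjusted p = 0.0561), and no other call was lost, while the count of the 4 genes past the threshold rose from 3 to 4 between axr3-1 and Col and between axr3-1 and iaa17-6 after IAA.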

Other observations

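Within groups, APL3 and ATSPS4F tended to be high on different arrays, a pattern chosen after the values were seen and not tested. In 6 of the 8 groups the array with the highest APL3 value had the lowest ATSPS4F value, the exceptions being the axr3-1 control and the triple mutant after IAA. In the Col control, for example, array 2 read 6.25 for APL3 against 5.89 and 5.64 on the others, and 6.49 for ATSPS4F against 7.52 and 7.33. Of the 6 groups with an array that stands apart, that array had the highest ATSPS4F value in 4 and alone the lowest APL3 value in 4. In the iaa17-6 control it tied with array 1 for the lowest APL3 value, at the floor. Between genotypes both genes were high in axr3-1, the difference by which they were chosen, so nothing is read from that.

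The probe sets annotated as PWD differed in the size of their axr3-1 difference from Col. The choice of ATGWD2 by that difference favours this, and the sizes were not tested against each other, so nothing is read from it. ATGWD2 (AT4G24450), by which the symbol was chosen, was 1.51 higher in the control and 1.35 higher after IAA. PWD (AT5G26570) was 0.21 and 0.40 higher, and neither passed the test (limma adjusted p = 0.429 and 0.0738). The PWD groups after IAA did not overlap, from which nothing is read. Without the 6 arrays that stand apart both PWD values passed (limma adjusted p = 0.0306 and 0.0477). Leaving out 1 array moved the control value of PWD between 0.11 and 0.39.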
